A study of Homo sapiens with 17 samples.

Results

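The genes described here are 10 neuronal adhesion genes, *MDGA1*, *MDGA2*, *CNTN1*, *CNTN3*, *TENM2*, *TENM3*, *TENM4*, *LRRN1*, *LRRN3* and *NRCAM*, out of 17958 genes measured. Each was represented by the brightest probe set whose platform annotation gives that symbol alone, and all 10 were found. They had been chosen by their measured LKB1 response, as neural adhesion genes whose LKB1 against control difference is unequal in the lines. Every difference that involves LKB1 arrays is therefore a description, with no test. The study expressed LKB1, the tumour suppressor kinase encoded by *STK11*, in A549 and H2122, human lung adenocarcinoma lines that lack functional LKB1. Cells carried a pBABE retrovirus with wild-type LKB1, with the kinase-dead mutant K78I, or with no insert, and all were selected in puromycin at 1 µg/mL for 2 weeks and grown in 5% serum. There were 3 arrays of each construct in A549, 3 of LKB1 and 3 of K78I in H2122, and 2 of H2122 with empty pBABE. The cells were stably infected populations of established lines. Whether replicates are separate cultures is not stated, so p-values measure the spread between these arrays, which may be technical.

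These proteins sit on the cell surface and are best known from neurons, where they guide axons and assemble synapses. MDGA1 and MDGA2 are lipid-anchored immunoglobulin proteins that bind neuroligins and keep neurexins from them. Contactins are lipid-anchored immunoglobulin proteins that act with partners of the L1 family, such as NRCAM, and with Caspr proteins along axons. Teneurins are large transmembrane proteins that bind latrophilins, together with FLRT proteins, across the gap between cells. LRRN1 and LRRN3 are transmembrane proteins with leucine-rich repeats.

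The 5 genes with the largest LKB1 differences have the following RefSeq promoters (GRCh38.p14), shown because they are the sequences just upstream of the members that moved. *MDGA1* (chr6:37697884-37698133, minus strand) and *LRRN1* (chr3:3799181-3799430, plus strand) have 1 listed start each. For *CNTN1* (chr12:40827934-40828183, plus strand) and *TENM2* (chr5:167072992-167073241, plus strand) the most upstream of 2 listed starts is shown. Each run holds the 250 bases before the start, and which start these cells use was not measured. For *NRCAM*, with 3 listed starts, only the 30 bases around the cyclic AMP response element of the most downstream start are shown (chr7:108243414-108243443, minus strand). Capitals mark matches on either strand to TGACGTCA or its shorter core TGACG (cyclic AMP response element, bound by CREB), GGAATG (TEAD), CAGGTG (an E-box) and CCAAT.
MDGA1: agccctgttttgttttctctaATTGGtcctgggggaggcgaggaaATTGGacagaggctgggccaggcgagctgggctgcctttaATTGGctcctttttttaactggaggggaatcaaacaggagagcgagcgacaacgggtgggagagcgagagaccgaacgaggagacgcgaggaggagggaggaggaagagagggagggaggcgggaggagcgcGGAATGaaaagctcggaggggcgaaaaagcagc
LRRN1: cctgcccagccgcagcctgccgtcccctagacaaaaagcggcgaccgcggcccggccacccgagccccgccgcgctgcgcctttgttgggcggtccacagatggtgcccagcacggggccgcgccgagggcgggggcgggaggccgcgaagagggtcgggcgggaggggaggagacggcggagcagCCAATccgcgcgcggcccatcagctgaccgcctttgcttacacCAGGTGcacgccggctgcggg
CNTN1: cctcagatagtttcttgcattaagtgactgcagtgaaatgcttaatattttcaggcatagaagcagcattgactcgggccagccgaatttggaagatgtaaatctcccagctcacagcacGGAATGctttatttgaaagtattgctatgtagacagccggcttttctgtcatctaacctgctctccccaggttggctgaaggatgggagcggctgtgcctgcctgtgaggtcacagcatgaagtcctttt
TENM2: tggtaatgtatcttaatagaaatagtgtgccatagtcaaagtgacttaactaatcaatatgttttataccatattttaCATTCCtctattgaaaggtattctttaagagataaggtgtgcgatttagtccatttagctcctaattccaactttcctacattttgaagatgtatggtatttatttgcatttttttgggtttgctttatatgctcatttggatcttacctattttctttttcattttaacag
NRCAM: agtcaaagaatTGACGTCAatatcaagagt

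The members did not share a motif pattern in these windows. GGAATG or its reverse complement was found before 1 start each of *MDGA1*, *CNTN1* and *TENM2*, and also of *MDGA2* and *LRRN3*, that is before 5 of the 16 listed starts of the 10 genes. Of all 35116 RefSeq promoters 11.9% hold it in a window of that length. TGACGTCA, which contains TGACG on both strands, was found once, 47 bases before the third start of *NRCAM*, and 1.65% of all promoters hold it. TGACG occurred before no other start of the members, and 21.2% of all promoters hold it. CAGGTG was found before 4 starts, of *MDGA2*, *TENM4*, *LRRN1* and *NRCAM* (17.5% of all promoters), and CCAAT before 8 (32.0% of all promoters). The promoter of *MDGA1* held CCAAT 3 times, each read as ATTGG. A match is only a run of letters, and binding was not measured.

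The arrays differed little in their overall distribution, with median levels between 5.62 and 5.73 over all probe sets. *STK11* checks the labels and went against 2 of them in A549. The array labelled pBABE replicate 3 stood at 10.52 (log2), beside 6.88 and 7.38 on the other pBABE arrays, and the array labelled K78I replicate 2 at 7.14, beside 10.54 and 10.42. The source names of 3 H2122 arrays, pBABE replicate 2, LKB1 replicate 3 and K78I replicate 3, give another construct than their titles, which were kept. In H2122 *STK11* was 6.33 and 6.22 with pBABE and between 11.20 and 11.35 on the 6 other arrays. The array means of 6 epithelial markers lay between 9.58 and 11.51, though in A549 *KRT19* stood at only 4.19 to 5.48 and *EPCAM* at 5.89 to 7.65. The means of 13 measured neuronal markers lay between 4.94 and 5.97 and of 4 glial markers between 4.65 and 4.88. Some neuronal markers stood well above these means. In A549 *NEFL* was 8.17 to 9.06, *INA* 7.61 to 8.24, *SNAP25* 7.06 to 10.24 and *MAP2* 6.98 to 10.05. In H2122 *MAP2* was 9.79 to 10.34 and *SYT1* 8.04 to 9.11. Because a low RMA level cannot be told from background, no marker can be called absent. In these bulk samples fewer cells with a transcript and less transcript per cell cannot be told apart.

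*MDGA1* had the largest LKB1 difference of the 10 genes. In A549 its log2 level was 9.43, 9.97 and 9.77 on the LKB1 arrays, 4.39, 4.79 and 6.03 with pBABE, and 5.28, 4.13 and 5.59 with K78I. Every LKB1 array lay above every control array, and the difference from the mean of the 2 control groups was 4.69 ± 0.35 (log2, SE), or 25.7-fold. The lower of these control levels cannot be told from background, so this fold may depend on that floor. In H2122 the level was 6.93, 6.49 and 7.01 with LKB1, 5.32 and 4.31 with pBABE, and 5.96, 5.88 and 5.95 with K78I. The H2122 groups did not overlap either, but the steps between them were small, and the difference was 1.44 ± 0.36 (SE), or 2.71-fold. The H2122 difference was 0.88 against K78I alone and 1.997 against pBABE alone, whereas in A549 it was 4.72 and 4.65. Its paralogue *MDGA2* ranged from 4.37 to 5.59 in A549 and from 3.14 to 4.15 in H2122. LKB1 arrays and controls of *MDGA2* overlapped in each line, with differences of −0.41 ± 0.20 and −0.19 ± 0.21 (SE).

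**Figure D1:**
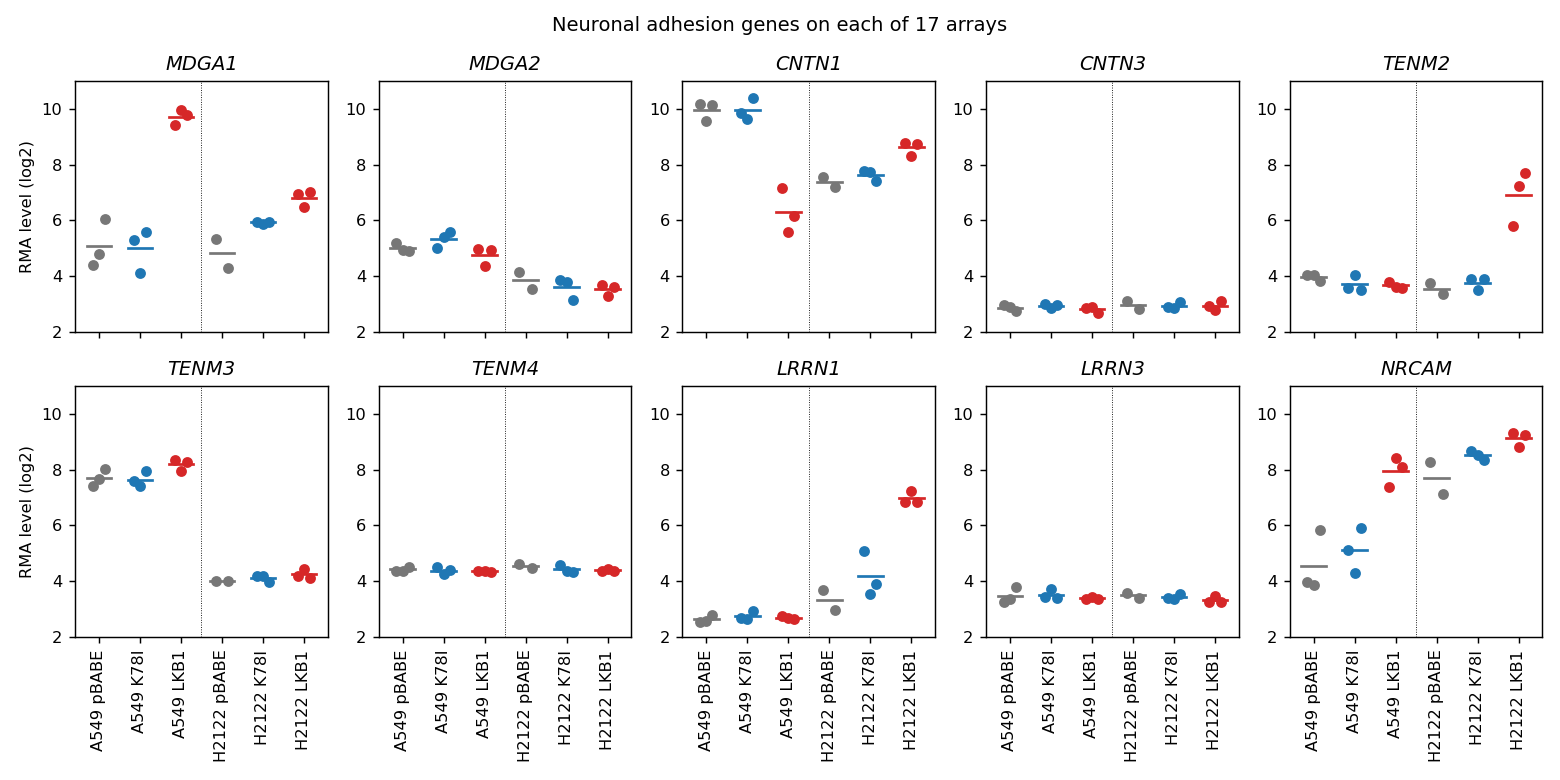
RMA level (log2) of the 10 members on each array, 1 point per array, by line and construct, with a bar at each group mean. *MDGA1* and *NRCAM* are higher and *CNTN1* lower on the A549 LKB1 arrays, while *TENM2* and *LRRN1* are high on the H2122 LKB1 arrays alone, at 5.78 to 7.69 and 6.85 to 7.25.

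*CNTN1* went in opposite directions in the lines. In A549 it was 7.17, 5.57 and 6.16 with LKB1, against 10.16, 9.55 and 10.14 with pBABE and 9.86, 9.63 and 10.38 with K78I. All LKB1 arrays lay below all controls, by 3.66 ± 0.28 (log2, SE) in the fit, so that controls were 12.6-fold higher. In H2122 it was 8.78, 8.31 and 8.75 with LKB1, 7.56 and 7.19 with pBABE, and 7.77, 7.73 and 7.40 with K78I. Here all LKB1 arrays lay above all controls, with a difference of 1.11 ± 0.29 (SE), or 2.16-fold. Control arrays averaged 9.95 ± 0.33 in A549 (SD, n = 6) and 7.53 ± 0.24 in H2122 (SD, n = 5). With LKB1 the order of the lines was turned, at 6.30 ± 0.81 and 8.61 ± 0.26 (SD, n = 3). *CNTN3* lay between 2.67 and 3.11 on all 17 arrays, and its groups overlapped in each line.

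*NRCAM*, the L1-family member, was high in H2122 with any construct and in A549 only with LKB1. In A549 it was 7.38, 8.41 and 8.09 with LKB1, 3.96, 3.87 and 5.83 with pBABE, and 5.13, 4.29 and 5.92 with K78I. The A549 groups with and without active LKB1 did not overlap, and differed by 3.13 ± 0.42 (log2, SE), or 8.75-fold. As for *MDGA1*, the lower control levels cannot be told from background, so the fold may depend on that floor. In H2122 it was 9.32, 8.81 and 9.26 with LKB1, 8.29 and 7.13 with pBABE, and 8.69, 8.54 and 8.35 with K78I. The lowest H2122 LKB1 array stood just above the highest K78I array. The difference of 1.01 ± 0.44 (SE), or 2.01-fold, was 0.60 against K78I and 1.42 against pBABE.

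Of the teneurins, *TENM2* was high on the H2122 LKB1 arrays, which varied widely among themselves. They stood at 5.78, 7.25 and 7.69, against 3.74 and 3.37 with pBABE and 3.90, 3.50 and 3.90 with K78I. The difference was 3.25 ± 0.30 (log2, SE), or 9.51-fold, and 3.81 without LKB1 replicate 1, the lowest of the 3. The control levels cannot be told from background, so this fold depends on that floor. The SE uses 1 estimate of the spread per gene, shared by all 6 groups of both lines. The H2122 LKB1 arrays alone had an SD of 0.999, where the other groups had 0.12 to 0.28, so the SE understates their spread. In A549 *TENM2* stayed between 3.51 and 4.05 on all 9 arrays, with groups that overlapped and a difference of −0.17 ± 0.29 (SE). *TENM3* differed between the lines more than between constructs, at 7.40 to 8.36 on the A549 arrays and 3.97 to 4.43 on the H2122 arrays. Its LKB1 difference was 0.52 ± 0.15 in A549 and 0.19 ± 0.15 in H2122 (SE), with overlap in each line. *TENM4* lay between 4.26 and 4.61 on all 17 arrays.

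*LRRN1* was also high on the H2122 LKB1 arrays, at 6.85, 7.25 and 6.85. It was 3.69 and 2.98 with pBABE and 5.09, 3.53 and 3.88 with K78I, so the groups did not overlap. The difference was 3.23 ± 0.27 (log2, SE), or 9.39-fold, and was 2.81 against K78I and 3.65 against pBABE. This fold, too, depends on control levels that cannot be told from background. In A549 the gene stayed between 2.53 and 2.93 on all 9 arrays, with a difference of −0.00 ± 0.25 (SE). That SE, too, uses the spread shared by both lines, and the A549 arrays alone had an SD of 0.12 (n = 9). *LRRN3* ranged from 3.25 to 3.78 over the 17 arrays, and its groups overlapped in each line.

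The order of group means shows where neighbours could not be told apart. For *MDGA1* it was A549 LKB1 (9.72 ± 0.27), H2122 LKB1 (6.81 ± 0.28), H2122 K78I (5.93 ± 0.04), A549 pBABE (5.07 ± 0.85), A549 K78I (4.999 ± 0.77) and H2122 pBABE (4.81 ± 0.72, SD), where each of the last 4 overlapped with its neighbour. For *CNTN1* the A549 K78I and pBABE means of 9.95 each led, H2122 LKB1 (8.61) followed, then H2122 K78I (7.63 ± 0.20) and pBABE (7.37 ± 0.26, SD), whose arrays overlapped, and A549 LKB1 (6.30) came last. For *NRCAM* the order ran from H2122 LKB1 (9.13 ± 0.28) over H2122 K78I (8.53 ± 0.17), A549 LKB1 (7.96 ± 0.53) and H2122 pBABE (7.71 ± 0.82) to A549 K78I (5.11 ± 0.82) and A549 pBABE (4.55, with arrays from 3.87 to 5.83). H2122 K78I overlapped with A549 LKB1, A549 LKB1 with H2122 pBABE, and the last pair with each other. For *TENM2* the 5 groups other than H2122 LKB1 had means from 3.55 to 3.97, a span close to the spread within the groups.

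A large difference between the lines was not seen for all 10 genes. The difference between lines, as H2122 effect minus A549 effect, was 4.77 ± 0.40 for *CNTN1*, 3.42 ± 0.42 for *TENM2*, 3.23 ± 0.37 for *LRRN1*, −3.25 ± 0.50 for *MDGA1* and −2.12 ± 0.61 for *NRCAM* (log2, SE). For the 5 other members it lay between −0.34 and 0.22. Of these, *MDGA2*, *CNTN3*, *TENM4* and *LRRN3* lie within the dimmest 30% of genes, where a difference may not be measurable. Read only as a description of the values that chose the members, and not as a test, 4 of 10 members lay past an adjusted p of 0.05 in limma in A549, where 8.44% of all genes did. They were 3 higher (5.49% of all genes) and 1 lower (2.95%). In H2122 it was 4 of 10 (7.28% of all genes), with 4 higher (4.99%) and 0 lower (2.29%). For the difference between lines it was 4 of 10 (3.6% of all genes), with 3 higher in H2122 (1.98%) and 1 lower (1.63%). Every LKB1 array lay above every control for 2 members in A549 (8.46% of all genes) and 5 in H2122 (8.54%), and below for 1 in A549 (6.65%) and 0 in H2122 (8.82%). These counts follow from how the members were chosen. Of the 10 members 6, among them *TENM2* and *LRRN1*, had a mean over all arrays within the dimmest 30% of genes.

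**Figure D2:**
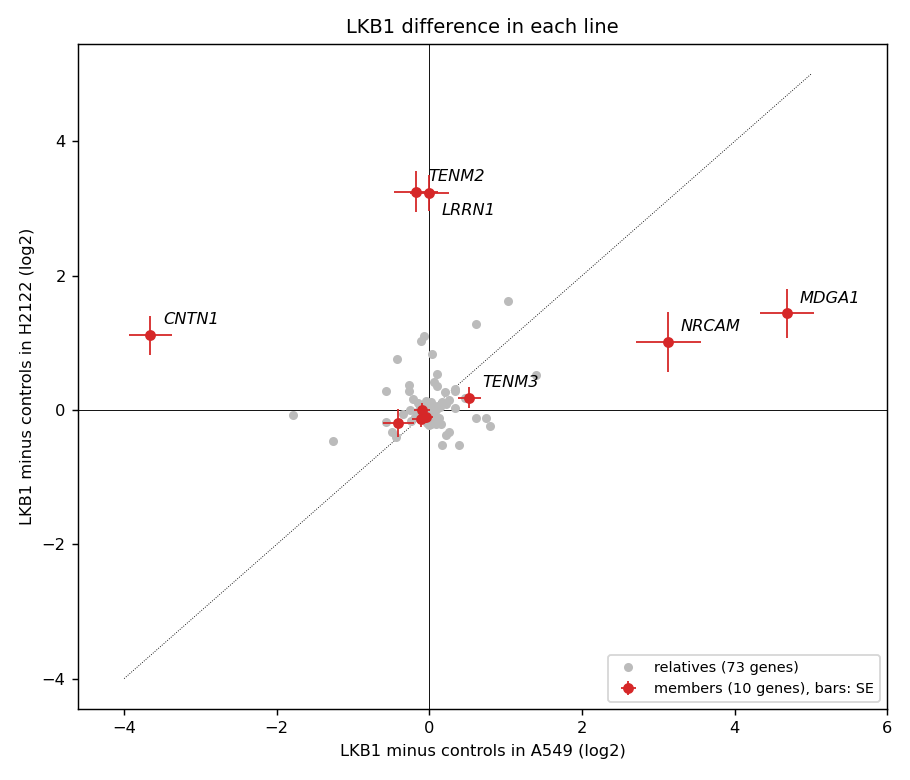
LKB1 minus the mean of the control groups (log2) in A549 (horizontal axis) and H2122 (vertical axis) for the 10 members (red, bars are SE) and 73 relatives (grey), with the dotted line marking equal effects. *TENM2* and *LRRN1* lie near 0 in A549 and above 3 in H2122, and *CNTN1* is negative in A549 and positive in H2122.

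The LKB1 differences were also read without the arrays in doubt. Without the 2 A549 arrays at odds with *STK11*, the A549 difference was 4.71 for *MDGA1*, −3.69 for *CNTN1* and 3.24 for *NRCAM* (log2). Without the 3 H2122 arrays whose labels disagree, the H2122 difference was 2.80 for *TENM2*, 3.05 for *LRRN1*, 1.09 for *MDGA1*, 0.89 for *CNTN1* and 0.61 for *NRCAM*. Each kept its sign. With groups by source name the H2122 difference was much smaller, at 1.04 for *TENM2*, 1.22 for *LRRN1* and 0.32 for *CNTN1*, and it was −0.05 for *MDGA1* and −0.16 for *NRCAM*. *STK11* goes against the source names of pBABE replicate 2 and K78I replicate 3. For LKB1 replicate 3 of H2122, with K78I as its source name, *STK11* cannot decide, at 11.26 beside 11.26 to 11.31 on the K78I arrays. Levels of the members cannot decide either, because the members were chosen by their LKB1 differences.

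Kinase-dead K78I against empty pBABE is a comparison that no LKB1 array enters, and it was tested. The same control arrays did enter the LKB1 differences that chose the members, so the test is not fully independent of that choice. No member passed in limma in either line, and neither did any gene of the 17958 (0% called in A549 and 0% in H2122). *STK11* itself, 5.00 ± 0.94 (log2, SE) higher with K78I than with pBABE in H2122, did not pass (limma adjusted p = 0.167). Its SE also holds the spread of the A549 arrays at odds with their labels. The comparison can therefore miss a large difference, and a member not called may still differ. At an unadjusted p under 0.05 there were 0 members and 472 genes in A549, and 2 members and 1260 genes in H2122. The 2 members were *LRRN1* (0.83 ± 0.33, SE, limma adjusted p = 0.668) and *MDGA1* (1.12 ± 0.45, SE, limma adjusted p = 0.675). All H2122 K78I arrays lay above both pBABE arrays for 2 members (9.33% of all genes), *MDGA1* and *NRCAM* (0.81 ± 0.55, SE, limma adjusted p = 0.837), and below for 0 (8.89% of all genes). The lower of the pBABE arrays, replicate 2, also had the lowest mean of 10 cell cycle genes, at 8.31 beside 9.60 to 10.04 on the other H2122 arrays. Without it, and without 2 A549 controls with low cell cycle genes, the difference was 0.61 for *MDGA1*, 0.48 for *LRRN1* and 0.23 for *NRCAM*. Its part in the difference was not tested.

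**Figure D3:**
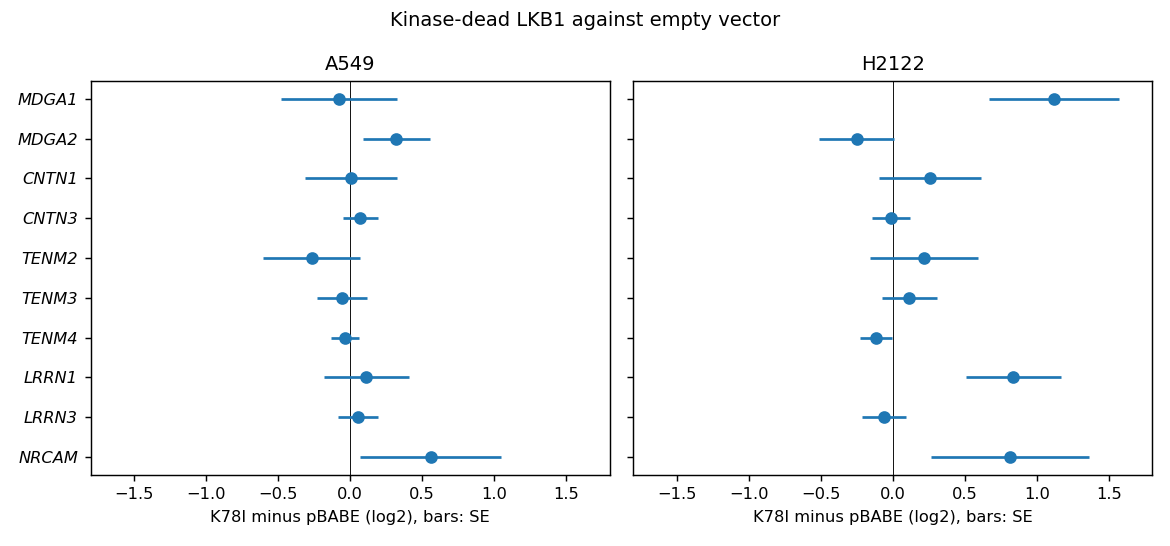
K78I minus pBABE (log2) for each member in A549 (left) and H2122 (right), with SE bars from the fit. No member passed at an adjusted p under 0.05, and the H2122 values of *MDGA1* (1.12), *LRRN1* (0.83) and *NRCAM* (0.81) are the highest.

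In A549 the same comparison depended on the arrays at odds with their labels. K78I minus pBABE was −0.07 ± 0.40 for *MDGA1* and 0.56 ± 0.49 for *NRCAM* (SE, limma adjusted p = 0.999 each) with all arrays. Without the 2 arrays it was 0.84 for *MDGA1* (limma adjusted p = 0.568) and 1.61 for *NRCAM* (limma adjusted p = 0.181). Among the 6 A549 controls the 3 with *STK11* above 10, pBABE replicate 3 and K78I replicates 1 and 3, had the 3 highest levels of *MDGA1* (6.03, 5.28 and 5.59) and of *NRCAM* (5.83, 5.13 and 5.92). The other 3 controls had *MDGA1* at 4.13 to 4.79 and *NRCAM* at 3.87 to 4.29. For *CNTN1* the same 3 arrays, at 10.14, 9.86 and 10.38, overlapped with the others, at 9.55 to 10.16. Of the 3 controls with low *STK11*, pBABE replicate 1 and K78I replicate 2 had cell cycle means of 9.62 and 9.20, beside 9.90 to 10.24 on the other A549 arrays. The part of either trait in these levels was not tested.

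**Figure D4:**
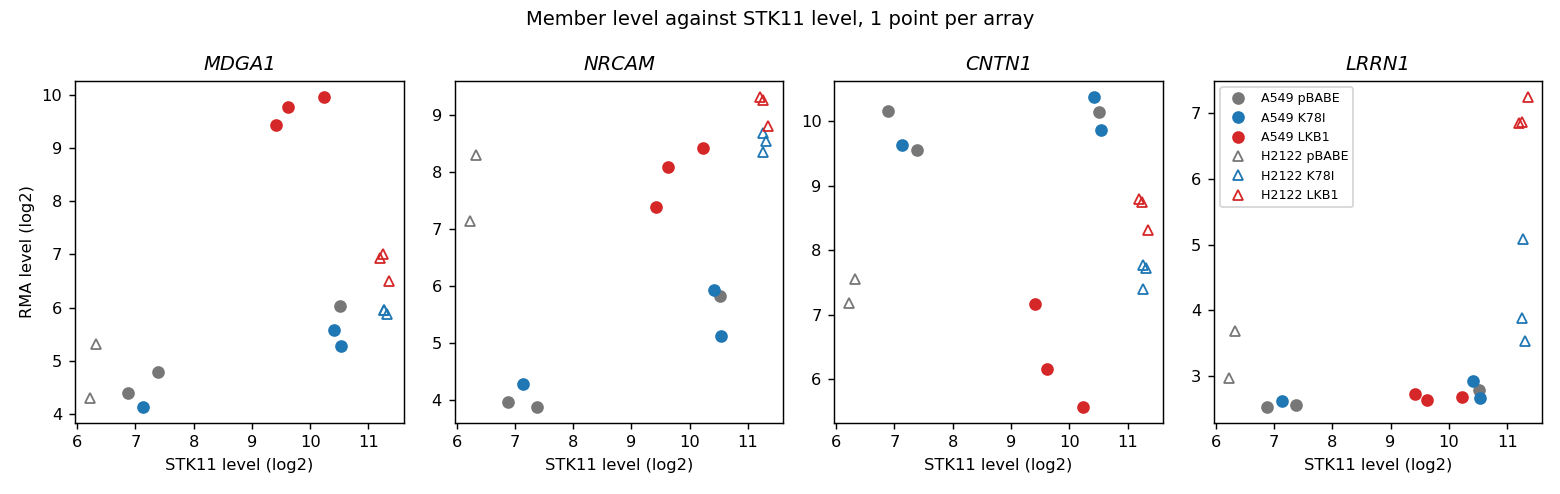
Level of *MDGA1*, *NRCAM*, *CNTN1* and *LRRN1* (vertical axis, log2) against the level of *STK11* (horizontal axis, log2), 1 point per array, with A549 as filled circles and H2122 as open triangles. The A549 LKB1 arrays, with *STK11* between 9.42 and 10.23, stand apart from A549 controls of higher *STK11* for *MDGA1*, *NRCAM* and *CNTN1*.

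The other genes of these families and their binding partners were read from a list of 75 relatives, of which 73 were measured. The relatives were tested, but both lists were made with earlier results known, and adhesion genes with a strong response may have been taken as members. The counts of relatives are therefore not independent of that choice. In A549 6 of 73 relatives rose and 2 fell (8.44% of all genes were called), and the median difference was 0.02, against −0.02 over all genes. In H2122 7 rose and 0 fell (9.59%, beside 7.28% of all genes), with medians of 0.02 and −0.04. Both counts lie near the background. Without A549 LKB1 replicate 2 or 3 the A549 count was 5 each, and without H2122 pBABE replicate 1 the H2122 count was 11.

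Among leucine-rich repeat relatives and the netrin-G proteins listed with them, *LRRN2*, a paralogue of *LRRN1* and *LRRN3*, rose in both lines. In A549 it was 7.08, 6.88 and 7.14 with LKB1 and between 5.34 and 5.86 on the controls, a rise of 1.39 ± 0.14 (SE, limma adjusted p = 2.2e-05). In H2122 it was 7.06, 6.99 and 7.24 with LKB1 and between 6.08 and 6.99 on the controls, a rise of 0.52 ± 0.15 (SE, limma adjusted p = 0.0446). That difference was 0.23 against K78I and 0.80 against pBABE. The lowest LKB1 array and the highest K78I array there were level to 2 decimals, and the gene was named for H2122 after its values were seen. *LINGO1*, a coreceptor in Nogo signalling, rose in A549 by 0.74 ± 0.13 (SE, limma adjusted p = 0.00261). *NTNG1*, the lipid-anchored netrin-G1, and *AMIGO2* rose in H2122, by 1.03 ± 0.15 and 1.28 ± 0.27 (SE, limma adjusted p = 0.000569 and 0.00786). *AMIGO2* did not pass against K78I alone (1.04, limma adjusted p = 0.0676) or without the 3 arrays whose labels disagree (0.92, limma adjusted p = 0.150).

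*FLRT2*, a ligand of latrophilins like the teneurins, was the relative with the largest rise in H2122. Its level there was 9.61, 9.27 and 9.56 with LKB1, 7.77 and 6.93 with pBABE, and 8.36, 8.66 and 8.11 with K78I, a rise of 1.62 ± 0.21 (SE, limma adjusted p = 0.000217). It rose in A549 too, from between 3.75 and 4.53 on the controls to 4.83, 5.43 and 5.25, by 1.03 ± 0.20 (SE, limma adjusted p = 0.0047). Of the 7 genes listed around the teneurins, which are *TENM1*, the latrophilins and the FLRT genes, *FLRT2* was the 1 that passed in either line. *CNTN5*, a paralogue of *CNTN1*, rose in H2122 from between 3.04 and 3.44 to 4.53, 3.79 and 4.48, by 1.096 ± 0.16 (SE, limma adjusted p = 0.000436).

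Of the 6 measured neuroligins and neurexins, the synaptic partners that MDGA proteins act on, 2 rose and 1 fell in A549, and 3 did not pass. The neuroligin *NLGN1* fell from between 5.66 and 6.68 on the controls to 4.49, 3.81 and 4.53 with LKB1, a difference of −1.78 ± 0.23 (SE, limma adjusted p = 2e-04). The neurexin *NRXN3* rose by 0.80 ± 0.15 (SE, limma adjusted p = 0.00296), from between 4.01 and 4.26 to 4.85, 4.91 and 4.87. The neuroligin *NLGN2*, named after its values were seen, rose by 0.47 ± 0.12 (SE, limma adjusted p = 0.0283). In H2122 0 of the 6 measured neuroligins and neurexins passed in limma, and 0 had an unadjusted p under 0.05. The Slit receptor *ROBO1* fell in A549 (−0.49 ± 0.13, SE, limma adjusted p = 0.0245), and the call was lost without LKB1 replicate 2 or 3 (limma adjusted p = 0.130 and 0.104) or against K78I alone (0.104).

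**Figure D5:**
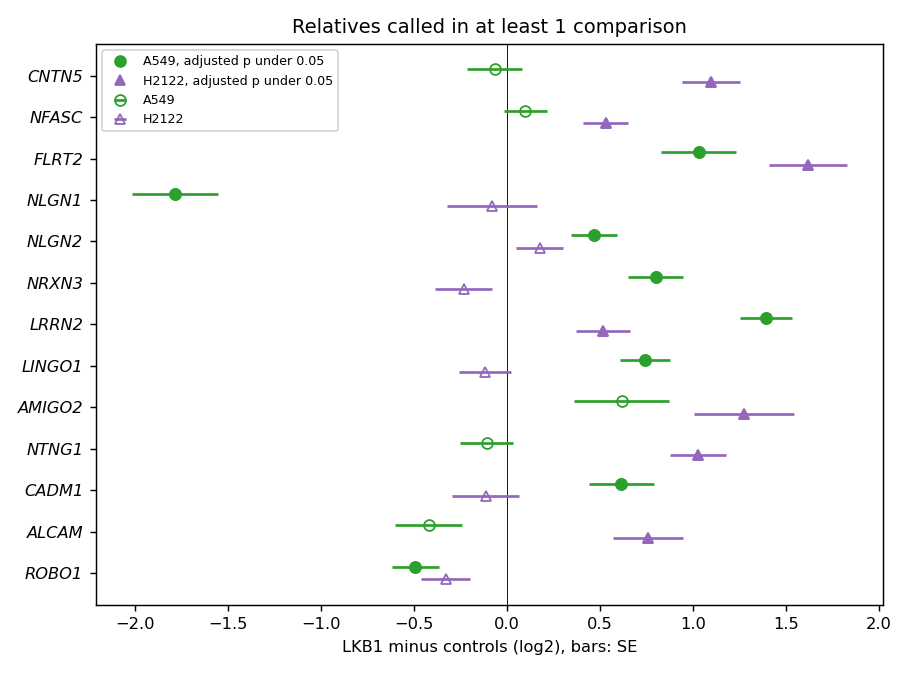
LKB1 minus the mean of the control groups (log2, SE bars) for the 13 relatives called in at least 1 comparison, in A549 (circles) and H2122 (triangles), with filled symbols where the adjusted p was under 0.05. *FLRT2* and *LRRN2* are filled in both lines, and *NLGN1* is the lowest value, at −1.78 in A549.

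For 7 relatives the LKB1 effect itself differed between the lines by limma (9.59%, beside 3.6% of all genes), higher in H2122 for 4 and in A549 for 3. They included *NLGN1* (1.70 ± 0.33, SE, limma adjusted p = 0.0104) and *NTNG1* (1.14 ± 0.21, SE, limma adjusted p = 0.00695), where a positive value means a higher effect in H2122. *NLGN1* stood at 2.51 to 2.88 on all 8 H2122 arrays, where a fall may not be measurable. Without A549 LKB1 replicate 3 the count was 4, and without the 3 H2122 arrays whose labels disagree it was 2. Like the members, the 7 relatives share the control arrays of their line.

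Neuronal identity genes were read beside the adhesion genes, and those named were chosen after their values were seen. Of 13 measured neuronal markers 2 rose in A549 (8.44% of all genes were called) and 1 in H2122 (7.28%), with median differences of 0.01 and 0.06. In A549 *RBFOX3* (−1.23), *SNAP25* (−0.74) and *SYP* (−0.33) had lower values with LKB1 and did not pass. The microtubule protein *MAP2* rose in A549 by 1.55 ± 0.34 and the neurofilament *NEFL* by 0.62 ± 0.14 (SE, limma adjusted p = 0.0107 and 0.0114). The vesicle calcium sensor *SYT1* rose in H2122 by 0.69 ± 0.17 (SE, limma adjusted p = 0.0186). The RNA-binding *ELAVL4* (2.61 to 3.14 on all arrays) did not pass in either line. Among 6 epithelial markers, E-cadherin (*CDH1*) fell in A549 (−1.17 ± 0.26, SE, limma adjusted p = 0.011), where 2.95% of all genes were called lower. No other epithelial marker passed there. *KRT7* (0.43) and *KRT19* (0.37) had higher values with LKB1, and *EPCAM* (−0.38), *KRT18* (−0.13) and *KRT8* (−0.12) lower ones. In H2122 0 of the 6 passed, and *CDH1* was higher with LKB1 (0.46 ± 0.27, SE, limma adjusted p = 0.404). By limma 0 glial or neuroendocrine markers passed in either line, of 4 and 3 measured.

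For each member with a range above 2 log2 units, the genes with the most similar pattern were found as those with the smallest root mean square difference over 17 arrays, after each gene was centred on its mean, among 17957 genes. For *MDGA1* they were *CCDC80* (0.46 log2 units) and *AFAP1L2* (0.70), beside a deviation of *MDGA1* about its own mean of 1.78. For *TENM2* they were *TMEM45A* (0.41) and the mucin-type glycoprotein podoplanin (*PDPN*, 0.44), beside 1.27, and for *LRRN1* the calcium-binding *S100A2* (0.51) and N-cadherin (*CDH2*, 0.52), beside 1.61. For *NRCAM* they were *DPYSL3* (0.58) and *PLEK2* (0.59), beside 1.85, and for *CNTN1* *VSIG1* (0.62) and the calcium channel subunit *CACNA1D* (0.64), beside 1.41. *TENM3*, which separates the lines, was closest to *NLRP2* (0.21) and *FBXO17* (0.23), beside 1.87, and *MDGA2* to *H3C3* (0.27) and keratin 8 (*KRT8*, 0.28), beside 0.76. The likeness covers both the difference between lines and that between constructs.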

How the data were processed

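Each of the 17 samples was hybridised to its own Affymetrix whole-transcript array, with 130 ng RNA as input according to the protocols. The deposited values are log2 levels per probe set. The authors used RMA, and the submitters' processing notes name Expression Console 1.1. RMA gives all arrays like distributions, so a shift of most genes in 1 direction cannot be seen. No detection calls were used, so a low level cannot be told from background. A genome build for the probe sets was not used here.

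Probe sets with exactly 1 symbol were kept, the brightest per gene, which left 17958 genes. Levels were fitted with limma 3.58.1 in R 4.3.3 (lmFit and eBayes, 6 groups, 11 residual degrees of freedom), with Benjamini-Hochberg adjustment over all 17958 genes and a threshold of 0.05. All groups shared 1 estimate of the spread per gene, so each SE pools both lines. LKB1 was compared with the equally weighted mean of its 2 control groups, and K78I with pBABE, within each line. The fit was tested on simulated data. Groups follow the sample titles. The members, the list of relatives and the marker lists were chosen with earlier results of these data known. Members are described without a test wherever LKB1 arrays enter (their counts past the threshold are given only beside those of all genes), and tested only for K78I against pBABE. The 10 cell cycle genes were picked after the control arrays low in them were known. All members are named. Of the relatives, the genes named are up to 4 called genes per comparison and direction with the lowest p, and any others are said to be chosen later. Alternatives were a replicate block, groups by source name, leaving out disputed arrays or each array in turn, dropping the dimmest 30% of genes, centring on medians, quantile normalization, averaging probe sets per gene, a robust prior with trend, array weights, each line alone and each control alone. Promoter sequences are RefSeq's, GRCh38.p14. Figures were drawn with matplotlib 3.10.9.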

Additional observations from a re-analysis of the deposited data

Results flagged for a closer look

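For 7 relatives of the members the test of the difference itself found that the LKB1 effect differed between the lines (H2122 effect minus A549 effect, log2, SE, limma). The difference was 1.70 ± 0.33 for *NLGN1* (adjusted p = 0.0104), 1.16 ± 0.22 for *CNTN5* (adjusted p = 0.00724) and 1.14 ± 0.21 for *NTNG1* (adjusted p = 0.00695). *NLGN1* fell in A549 and lay at 2.51 to 2.88 on all H2122 arrays, a level at which a fall may not be measurable. The difference was 1.18 ± 0.26 for *ALCAM*, an immunoglobulin adhesion protein (adjusted p = 0.0205). It was −1.03 ± 0.21 for *NRXN3* (adjusted p = 0.0139), −0.88 ± 0.20 for *LRRN2* (adjusted p = 0.0271) and −0.86 ± 0.19 for *LINGO1* (adjusted p = 0.0229). Without the 3 H2122 arrays whose labels disagree the adjusted p was 0.103 for *NLGN1*, 0.106 for *CNTN5*, 0.0553 for *NTNG1*, 0.193 for *ALCAM* and 0.0897 for *LINGO1*. With groups by source name it was 0.344 for *NRXN3*, 0.685 for *CNTN5*, 0.477 for *NTNG1* and 0.605 for *ALCAM*. Against K78I alone the calls of *NRXN3* (adjusted p = 0.0796) and *ALCAM* (0.0816) were lost, and against pBABE alone those of *LRRN2* (0.276) and *LINGO1* (0.116). The calls of *ALCAM*, *LRRN2* and *LINGO1* were lost without any of several single arrays, with adjusted p between 0.0503 and 0.0929. *ALCAM* lost it without A549 LKB1 replicate 2 or 3 or H2122 LKB1 replicate 1 or 3, *LRRN2* without A549 LKB1 replicate 1 or 3, A549 pBABE replicate 2 or H2122 LKB1 replicate 1 or 2, and *LINGO1* without A549 LKB1 replicate 1, 2 or 3 or H2122 LKB1 replicate 2 or 3.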

How the results depend on the processing

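The LKB1 differences of the members were recomputed under up to 31 alternatives each, 608 values in all, of which 597 stayed within 1 replicate SD and 10 moved beyond it. Many of these values could not move. Leaving out an array of the other line, the trended prior, the filter for dim genes and fitting each line alone do not change a difference of group means. In A549 the replicate block and groups by source name left it the same too. The share that stayed is therefore partly fixed in advance. Among member differences past a limma adjusted p of 0.05, a cut used only for sorting and not as a test, the sign turned once. It turned for *MDGA1* in H2122, at −0.0511 with groups by source name, a grouping that *STK11* goes against on 2 of the 3 arrays it moves. The H2122 difference of *NRCAM*, not past that cut, was −0.16 there, so its sign turned too. Some differences near 0 also turned sign and are not in this count, such as that of *CNTN3* in H2122 (−0.18 to 0.09). No count of members called for K78I against pBABE left 0, with or without the replicate block and without any replicate. Same-numbered arrays had a correlation of deviations above 0.1 in 4 of 9 pairs in A549 (−0.64 to 0.35) and 6 of 7 in H2122 (0.06 to 0.42), so not every pair met the condition for a pairing, though H2122 came close. With the replicate block the counts of called relatives were 8 in A549, 8 in H2122 and 8 for the difference between lines, against 8, 7 and 7. Leaving out each array gave 5 to 10 relatives in A549, 5 to 11 in H2122 and 4 to 9 for the difference between lines. Where H2122 pBABE was left with 1 array, it was assumed to vary like the other groups. Groups by source name gave 5, 0 and 3. Leaving out the arrays whose labels disagree gave 3 in H2122 and 2 for the difference between lines. Array weights gave 13, 11 and 11. Without the dimmest 30% of genes, which left 33 relatives, 5 were called in A549 and 2 differed between lines. Against K78I alone 4 were called in H2122, and leaving out the 3 controls low in cell cycle genes gave 12. Apart from the lists' smaller size under the filter, the cause of these changes was not tested. The number of arrays limits the precision, and 6 members and 40 relatives lie among the dimmest 30% of genes, where signal over background is unknown.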

Other observations

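Some neuronal and neuroendocrine markers varied among the A549 control arrays more than between constructs. They were chosen after their values were seen. Chromogranin B (*CHGB*) stood at 8.40, 6.23 and 5.29 with pBABE, 5.75, 9.53 and 5.33 with K78I and 4.93, 4.87 and 4.93 with LKB1 (log2). The synaptic membrane protein *SNAP25* stood at 9.48, 8.01 and 7.70, at 7.57, 10.24 and 8.56, and at 8.54, 7.06 and 7.94 on the same arrays. For both genes the highest arrays were K78I replicate 2 and pBABE replicate 1. The LKB1 difference did not pass for either (−1.84 ± 0.74 for *CHGB* and −0.74 ± 0.50 for *SNAP25*, SE, limma adjusted p = 0.15 and 0.443). On the same 2 arrays *MDGA1* (4.13 and 4.39) and *NRCAM* (4.29 and 3.96) lay in the lower part of the A549 controls. Both arrays also had low cell cycle means (9.20 and 9.62, beside 9.90 to 10.24 on the other A549 arrays). *STK11* was low on both, at 7.14 and 6.88, which goes against the K78I label of the first. The part of these traits in the marker levels was not tested.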
